A study of Mus musculus with 10 samples.

Results

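The genes described here are 10 transcripts known to rise in cells short of oxygen: Egln1, Egln3, Ndrg1, Slc2a1, Ero1a, Vegfa, Adm, Ankrd37, Car9 and P4ha1. They were taken by gene symbol from a table of 56748 genes measured by RNA sequencing in mouse liver and liver tumours, and each symbol stood on 1 row. The samples were 3 Akt/Nras/Foxo1AAA tumours, which were driven by all of Akt, Nras and Foxo1AAA, 3 Akt/Nras tumours, which lacked Foxo1AAA, and 4 normal livers. The tumours are models of hepatocellular carcinoma. DNA reached the hepatocytes by hydrodynamic injection, a rapid high-volume injection through the tail vein that drives plasmids into liver cells. All mice are labelled wild type, and the normal livers came from the FVB strain. AKT is a growth-promoting kinase that keeps the transcription factor FOXO1 out of the nucleus by phosphorylating it, and Foxo1AAA is a form of FOXO1 that AKT cannot phosphorylate. Both tumour groups carry Akt and Nras, so their comparison is about Foxo1AAA on that shared background. The promoter of the injected genes, the age of the mice and whether the normal livers had been injected are not given in the labels. Nothing in the labels says that the replicates of a group came from separate mice, so p-values speak only for the spread seen among these samples, which may be technical.

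In cells with enough oxygen, prolyl hydroxylases of the EGLN family (also called PHD) mark the alpha subunits of hypoxia-inducible factor (HIF), and the VHL protein then targets them for destruction. When oxygen is short the marking fails, the alpha subunits pair with ARNT, and HIF raises genes for glucose uptake, glycolysis, blood vessel growth, pH control and matrix modification. EGLN3 and, in many cells, EGLN1 are themselves raised by HIF, which makes them part of a feedback. HIF binds DNA at the core motif ACGTG or GCGTG. In the liver, oxygen falls along the blood flow through each lobule, and growth factor signalling can also raise some of these genes at normal oxygen.

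The table of RefSeq promoters on the mouse build GRCm38.p6, with 250 bases before and 50 bases after each start, gave 10 windows for 9 of the 10 genes, with Vegfa at 2 listed start sites. Any window under these symbols on a chromosome where none of the 10 genes lies was left out of these 10, but not of the whole table. The windows of Egln3, Slc2a1 and Ero1a are shown because these genes, with Ndrg1, differed between the tumour groups, and those of Vegfa because it moved apart from the other genes. Each is written on the gene's strand, 5′ to 3′, and capitals mark ACGTG and GCGTG or, where the motif lies on the opposite strand, CACGT and CACGC. The coordinates are chr12:54203825-54204124 (minus strand) for Egln3, chr4:119108495-119108794 (plus strand) for Slc2a1 and chr14:45318523-45318822 (minus strand) for Ero1a. The Vegfa windows lie at chr17:46032328-46032627 and chr17:46025114-46025413, both on the minus strand.
Egln3: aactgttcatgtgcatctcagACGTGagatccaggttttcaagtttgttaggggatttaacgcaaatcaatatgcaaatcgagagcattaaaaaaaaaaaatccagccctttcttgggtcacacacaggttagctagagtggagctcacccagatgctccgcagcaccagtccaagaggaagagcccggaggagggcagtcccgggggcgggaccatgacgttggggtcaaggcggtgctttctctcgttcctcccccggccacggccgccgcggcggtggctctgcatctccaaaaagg
Slc2a1: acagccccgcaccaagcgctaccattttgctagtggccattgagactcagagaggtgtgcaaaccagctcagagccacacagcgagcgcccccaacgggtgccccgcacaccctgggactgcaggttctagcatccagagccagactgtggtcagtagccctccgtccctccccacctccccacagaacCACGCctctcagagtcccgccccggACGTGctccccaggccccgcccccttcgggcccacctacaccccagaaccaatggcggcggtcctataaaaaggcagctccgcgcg
Ero1a: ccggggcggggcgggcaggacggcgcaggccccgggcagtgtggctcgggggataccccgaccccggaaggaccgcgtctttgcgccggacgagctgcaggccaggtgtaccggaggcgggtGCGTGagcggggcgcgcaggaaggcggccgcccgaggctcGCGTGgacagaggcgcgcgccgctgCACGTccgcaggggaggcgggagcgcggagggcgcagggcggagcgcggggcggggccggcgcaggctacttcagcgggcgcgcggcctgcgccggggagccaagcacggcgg
Vegfa, window 1: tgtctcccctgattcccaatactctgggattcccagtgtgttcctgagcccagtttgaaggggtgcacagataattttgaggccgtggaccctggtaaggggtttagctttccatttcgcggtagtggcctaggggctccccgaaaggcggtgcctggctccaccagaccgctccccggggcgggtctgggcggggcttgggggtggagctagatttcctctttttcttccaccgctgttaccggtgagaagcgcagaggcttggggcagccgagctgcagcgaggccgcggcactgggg
Vegfa, window 2: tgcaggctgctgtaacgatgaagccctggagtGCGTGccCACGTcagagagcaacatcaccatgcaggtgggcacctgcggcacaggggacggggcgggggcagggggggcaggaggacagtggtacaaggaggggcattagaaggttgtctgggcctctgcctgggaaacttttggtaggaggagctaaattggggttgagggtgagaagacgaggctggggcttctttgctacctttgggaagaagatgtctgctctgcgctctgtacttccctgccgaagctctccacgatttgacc

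Searched on both strands, ACGTG occurred in 8 of the 10 windows, against 19.6% of all 32851 windows of the table. GCGTG occurred in 7 of the 10, against 32.4% of all windows, and at least 1 of the 2 motifs in 9 of the 10, against 43.8%. In Egln3 the ACGTG began 229 bases before the start site. In Slc2a1 it began 36 bases before the start site, and GCGTG stood 61 bases before it on the opposite strand. Ero1a had GCGTG at 128 and 88 bases and ACGTG, on the opposite strand, at 63 bases before its start. Window 1 of Vegfa held neither motif, and window 2 held GCGTG and ACGTG close together at 218 and 211 bases before its start. Window 2 lies downstream of window 1 on the gene's strand, and the counts above include it. For Egln3, Ero1a and both Vegfa windows, the bases just after the start were not found in an annotated GENCODE transcript of the gene. Their distances are therefore to the listed start only. The windows of these genes were 54.7% to 86.0% G and C, above the median of 52.7% over all windows, and both motifs contain CG, so the share was not compared at equal base composition. A match of letters is a description and not a measured binding site.

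Levels are given as FPKM, the deposited unit, which is fragments per kilobase of gene and per M fragments. The libraries held 13.6 to 21.3 M reads. Akt1 was at 670 to 1198 FPKM in Akt/Nras/Foxo1AAA tumours and 720 to 963 FPKM in Akt/Nras tumours, against 20.6 to 21.6 FPKM in normal livers. Foxo1 was at 77.9 to 125 FPKM in Akt/Nras/Foxo1AAA tumours, against 5.37 to 6.05 FPKM in Akt/Nras tumours and 6.75 to 8.02 FPKM in normal livers. Nras was at 8.96 to 9.46 FPKM in Akt/Nras/Foxo1AAA tumours and 9.62 to 11 FPKM in Akt/Nras tumours, against 4.84 to 5.56 FPKM in normal livers. Akt1 and Foxo1 thus stood as the labels state. The rise of Nras was much smaller, and the labels do not say whether reads of an injected Nras would count in this row. A bulk sample mixes cell types, so a lower level from fewer cells of a type and one from less RNA per cell cannot be told apart. Changes are differences of mean log2(FPKM + 1) from 1 limma fit over the 10 libraries, which understates the change of low genes, and folds are ratios of mean FPKM. A gene was called at a Benjamini-Hochberg adjusted p under 0.05 over the 12439 genes tested, and 9 of these 10 genes were among them. Car9 fell short of the level needed, 1 FPKM in at least 3 libraries.

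**Figure D1:**
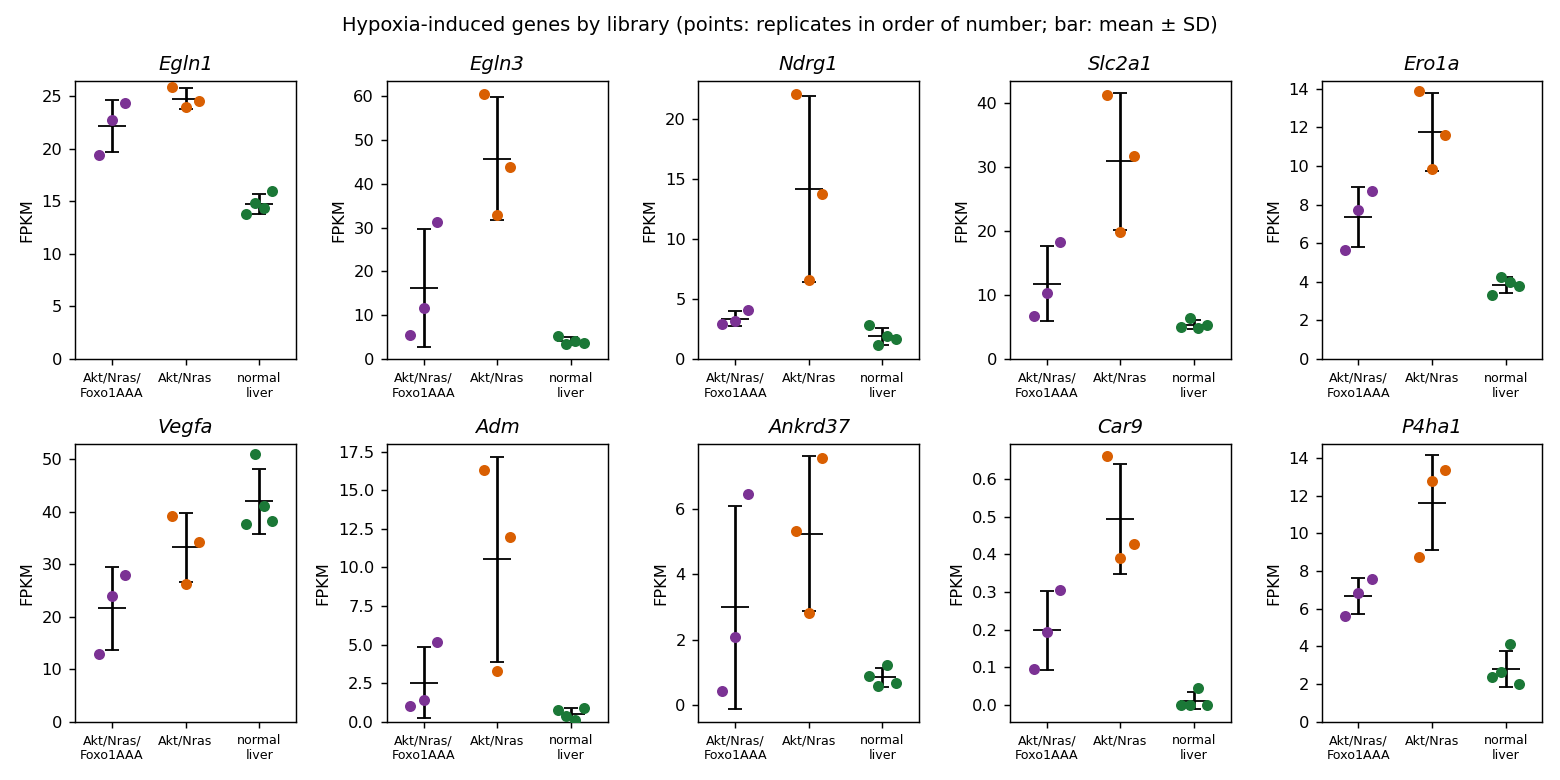
Level of each of the 10 genes in FPKM on the y axis (from 0, except where an error bar crosses it), in Akt/Nras/Foxo1AAA tumours, Akt/Nras tumours and normal livers from left to right; points are libraries and bars are the mean with the SD (n = 3, 3 and 4). Apart from Vegfa, the Akt/Nras tumours lie above the normal livers in every panel, and the mean of the Akt/Nras/Foxo1AAA tumours lies between those of the other groups.

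The oxygen sensors come first. Egln3 encodes the prolyl hydroxylase PHD3, the most strongly oxygen-regulated enzyme of its family in many cells. Its level was 5.5, 11.6 and 31.3 FPKM in Akt/Nras/Foxo1AAA replicates 1, 2 and 3, then 60.6, 32.9 and 43.9 FPKM in the Akt/Nras tumours, and 5.36, 3.43, 4.04 and 3.67 FPKM in the normal livers. The 3 groups did not overlap, although Akt/Nras/Foxo1AAA replicate 1 was close to the highest normal liver and replicate 3 close to the lowest Akt/Nras tumour. Against normal liver, Egln3 rose by 3.16 ± 0.43 on the log2 scale (SE) in Akt/Nras tumours, an 11.1-fold difference of means (limma adjusted p = 7.42e-05). With Foxo1AAA present it rose by 1.45 ± 0.43 (3.91-fold, adjusted p = 0.0133), and by 0.84 without Akt/Nras/Foxo1AAA replicate 3 (2.08-fold, adjusted p = 0.0318). Between the tumour groups it was 2.84-fold lower with Foxo1AAA (log2 change -1.71 ± 0.46, adjusted p = 0.0387). That call was lost on leaving out any 1 of the 10 libraries except Akt/Nras/Foxo1AAA replicate 3, with log2 changes between -1.92 and -1.17 and adjusted p between 0.0515 and 0.116. Without Akt/Nras/Foxo1AAA replicate 3 the difference was 5.34-fold (-2.32, adjusted p = 0.00243).

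Egln1 encodes PHD2, the main HIF prolyl hydroxylase in most tissues. It measured 19.5, 22.8 and 24.3 FPKM in the Akt/Nras/Foxo1AAA tumours, 25.9, 23.9 and 24.6 FPKM in the Akt/Nras tumours, and 13.8, 14.9, 14.3 and 15.9 FPKM in the normal livers. Every tumour was above every normal liver, while the tumour groups overlapped. The rise was small and even: 1.68-fold in Akt/Nras tumours (a log2 change of 0.71 ± 0.09, limma adjusted p = 3.51e-05) and 1.5-fold in Akt/Nras/Foxo1AAA tumours (0.55 ± 0.09, adjusted p = 0.000282). The change between the tumour groups was -0.16 ± 0.09 and was not called (adjusted p = 0.297). Within the Akt/Nras tumours Egln1 varied 1.08-fold between the lowest and highest library, against 1.84-fold for Egln3.

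Of the genes for uptake and pH, Slc2a1 encodes GLUT1, a glucose transporter that is low in healthy hepatocytes. It reached 6.73, 10.4 and 18.3 FPKM in the Akt/Nras/Foxo1AAA tumours, against 41.2, 19.8 and 31.7 FPKM in the Akt/Nras tumours and 4.97, 6.42, 4.89 and 5.31 FPKM in the normal livers. The groups did not overlap, and Akt/Nras/Foxo1AAA replicate 1 lay just above the highest normal liver. Slc2a1 rose 5.73-fold in Akt/Nras tumours (a log2 change of 2.27 ± 0.30, limma adjusted p = 5.27e-05) and 2.19-fold in Akt/Nras/Foxo1AAA tumours (0.90 ± 0.30, adjusted p = 0.0208). The second of these calls was lost without Akt/Nras/Foxo1AAA replicate 3 (log2 change 0.56, adjusted p = 0.0881). With Foxo1AAA the level was 2.62-fold lower than in Akt/Nras tumours (-1.36 ± 0.32, adjusted p = 0.0228). Leaving out Akt/Nras replicate 1 or 3, or Akt/Nras/Foxo1AAA replicate 1 or 2, ended that call, with adjusted p between 0.0584 and 0.0794.

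Car9, which encodes the cell-surface carbonic anhydrase IX, was the lowest of the 10. It was at 0.0956, 0.194 and 0.304 FPKM in the Akt/Nras/Foxo1AAA tumours and 0.660, 0.391 and 0.428 FPKM in the Akt/Nras tumours, and 3 of the 4 normal livers were listed at 0. The reads behind these values were 22 over the Akt/Nras/Foxo1AAA tumours, 62 over the Akt/Nras tumours and 1 over the normal livers. Each count was divided by the summed FPKM divisor of its group, which was not the number of reads. That gave a ratio of 43.6 for Akt/Nras tumours over normal liver, with an exact 95% interval of 7.54 to 1750. For Akt/Nras/Foxo1AAA tumours over normal liver it was 17.1 (2.76 to 705). Ratios at equal read depth were not computed. The ratio of Akt/Nras/Foxo1AAA tumours to Akt/Nras tumours was 0.392 (0.229 to 0.646). These intervals cover counting error only, not the spread between samples. All 3 groups were separate for Car9, with the Akt/Nras tumours highest.

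The secreted factors Adm and Vegfa differed in direction. Adm encodes adrenomedullin, a peptide that widens blood vessels. Its values were 1.02, 1.38 and 5.19 FPKM in the Akt/Nras/Foxo1AAA tumours, then 16.3, 3.30 and 11.9 FPKM in the Akt/Nras tumours, and 0.738, 0.344, 0.129 and 0.911 FPKM in the normal livers. Every tumour exceeded every normal liver, and the tumour groups overlapped because Akt/Nras/Foxo1AAA replicate 3 was above Akt/Nras replicate 2. Adm rose 19.8-fold in Akt/Nras tumours (a log2 change of 2.72 ± 0.49, limma adjusted p = 0.00053). Its 4.77-fold difference in Akt/Nras/Foxo1AAA tumours was not called (1.05, adjusted p = 0.084), although it was without Akt/Nras replicate 2 (adjusted p = 0.0286). Without Akt/Nras/Foxo1AAA replicate 3 that difference was 2.26-fold (0.55, adjusted p = 0.335). The change between the tumour groups, -1.67, was not called either (adjusted p = 0.0647), and was called without Akt/Nras replicate 2 (-2.27, adjusted p = 0.0204) or without Akt/Nras/Foxo1AAA replicate 3 (-2.17, adjusted p = 0.0188). Over the other omissions of 1 library it lay between -1.67 and -1.27, with adjusted p up to 0.213.

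Vegfa encodes the main growth factor for blood vessels. It stood at 12.8, 23.9 and 28 FPKM in the Akt/Nras/Foxo1AAA tumours and 39.2, 26.1 and 34.2 FPKM in the Akt/Nras tumours, against 37.7, 51.0, 41.1 and 38.2 FPKM in the normal livers. It was the most abundant of the 10 genes in normal liver, and all 3 Akt/Nras/Foxo1AAA tumours were below all 4 normal livers, whereas the Akt/Nras tumours overlapped both other groups. Vegfa was 1.95-fold lower in Akt/Nras/Foxo1AAA tumours than in normal liver (log2 change -0.99 ± 0.24, limma adjusted p = 0.00398). In Akt/Nras tumours the change was -0.34 ± 0.24 and was not called (adjusted p = 0.224). Between the tumour groups it was -0.65 ± 0.25 and not called (adjusted p = 0.121), and was called without Akt/Nras/Foxo1AAA replicate 3 (-0.86, adjusted p = 0.0461), while without replicate 1 of that group it was -0.33 (adjusted p = 0.347). The direction in Akt/Nras tumours depended on the scaling: with the FPKM of each library set to an equal total the change was 0.61 (adjusted p = 0.0332). Under that scaling the change in Akt/Nras/Foxo1AAA tumours was -0.29 and no longer called (adjusted p = 0.29). The median of all genes moves to 0.47 in Akt/Nras/Foxo1AAA tumours and 0.70 in Akt/Nras tumours under that scaling, and the change of Vegfa minus that median was -0.75 in Akt/Nras/Foxo1AAA tumours and -0.09 in Akt/Nras tumours.

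Ero1a and P4ha1 encode enzymes of the endoplasmic reticulum. ERO1A passes electrons from protein disulfide isomerase to oxygen and so drives disulfide bond formation in secreted proteins. Its transcript measured 5.67, 7.73 and 8.69 FPKM in the Akt/Nras/Foxo1AAA tumours, 13.9, 9.82 and 11.6 FPKM in the Akt/Nras tumours, and 3.31, 4.26, 3.99 and 3.78 FPKM in the normal livers. The 3 groups were separate, and the highest library of a group exceeded its lowest by at most 1.53-fold. Ero1a rose 3.07-fold in Akt/Nras tumours (a log2 change of 1.39 ± 0.14, limma adjusted p = 8.91e-06) and 1.92-fold in Akt/Nras/Foxo1AAA tumours (0.78 ± 0.14, adjusted p = 0.000799). It was 1.60-fold lower with Foxo1AAA than in Akt/Nras tumours (-0.62 ± 0.15, adjusted p = 0.0294), a call lost without Akt/Nras replicate 1 or 3, or Akt/Nras/Foxo1AAA replicate 1 or 2, at adjusted p between 0.0665 and 0.102.

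P4ha1 encodes the catalytic subunit of the prolyl 4-hydroxylase that stabilises the collagen triple helix. It was at 5.64, 6.81 and 7.57 FPKM in the Akt/Nras/Foxo1AAA tumours, against 8.72, 12.8 and 13.4 FPKM in the Akt/Nras tumours and 2.37, 2.66, 4.14 and 2.01 FPKM in the normal livers. Here too the groups did not overlap, but Akt/Nras replicate 1 was the lowest of its group, where it was the highest for most of the other genes. The rise was 4.16-fold in Akt/Nras tumours (a log2 change of 1.74 ± 0.19, limma adjusted p = 1.49e-05) and 2.39-fold in Akt/Nras/Foxo1AAA tumours (1.04 ± 0.19, adjusted p = 0.000803). The change between the tumour groups, -0.70 ± 0.21, missed the threshold (adjusted p = 0.0518), and passed it without normal liver replicate 3 (adjusted p = 0.0295) or without Akt/Nras replicate 1 (-0.88, adjusted p = 0.0349), while without Akt/Nras/Foxo1AAA replicate 1 it was -0.60 (adjusted p = 0.176).

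Ndrg1, a cytoplasmic protein linked to differentiation and stress and a well-known hypoxia marker, gave 2.89, 3.15 and 4.08 FPKM in the Akt/Nras/Foxo1AAA tumours. It gave 22.1, 6.58 and 13.8 FPKM in the Akt/Nras tumours and 2.84, 1.13, 1.89 and 1.67 FPKM in the normal livers. The Akt/Nras tumours were apart from both other groups, while the lowest Akt/Nras/Foxo1AAA tumour was just above the highest normal liver. Ndrg1 rose 7.53-fold in Akt/Nras tumours (a log2 change of 2.28 ± 0.32, limma adjusted p = 9.22e-05). The 1.79-fold difference between Akt/Nras/Foxo1AAA tumours and normal liver was not called (0.62 ± 0.32, adjusted p = 0.114), and was called without Akt/Nras replicate 1 or 2 (adjusted p = 0.0495 and 0.0282), but reached an adjusted p of 0.264 without Akt/Nras/Foxo1AAA replicate 3. With Foxo1AAA the level was 4.2-fold lower than in Akt/Nras tumours (-1.66 ± 0.34, adjusted p = 0.0149), the largest ratio of mean FPKM among the 9 tested genes in that comparison, ahead of Adm at 4.16-fold. On the log2 scale Egln3 (-1.71) and Adm (-1.67) changed by slightly more. That call was lost without Akt/Nras/Foxo1AAA replicate 1 (-1.58, adjusted p = 0.0593) or replicate 2 (-1.63, adjusted p = 0.0532).

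Ankrd37 encodes an ankyrin-repeat protein whose gene is a HIF target. It measured 0.430, 2.07 and 6.46 FPKM in the Akt/Nras/Foxo1AAA tumours, 5.33, 2.81 and 7.56 FPKM in the Akt/Nras tumours, and 0.888, 0.579, 1.22 and 0.664 FPKM in the normal livers. The Akt/Nras/Foxo1AAA tumours spanned nearly the whole range, with replicate 1 below every normal liver and replicate 3 above 2 of the 3 Akt/Nras tumours. Only the rise in Akt/Nras tumours was called (6.25-fold, log2 change 1.70 ± 0.46, limma adjusted p = 0.00739). The changes in Akt/Nras/Foxo1AAA tumours were 0.81 ± 0.46 against normal liver (adjusted p = 0.148) and -0.89 ± 0.49 against Akt/Nras tumours (adjusted p = 0.268). The first of these was called without Akt/Nras/Foxo1AAA replicate 1 (1.39, adjusted p = 0.00962) and the other without replicate 3 of that group (-1.5, adjusted p = 0.0257). They were smaller with the opposite omissions, at 0.20 against normal liver without Akt/Nras/Foxo1AAA replicate 3 (adjusted p = 0.641) and -0.30 against Akt/Nras tumours without replicate 1 (adjusted p = 0.721). In the table Ankrd37 overlaps Ufsp2 by 57 bases and Lrp2bp by 6405 bases, both on the opposite strand. The labels do not say whether reads were counted by strand, and without that the reads of overlapping genes cannot be told apart. Slc2a1, Adm, Ndrg1 and Car9 also overlap non-coding genes on the opposite strand, none of which exceeded 0.54 FPKM in any library. Slc2a1 also overlaps Mir1957a by 66 bases on its own strand, which reached at most 0.852 FPKM.

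**Figure D2:**
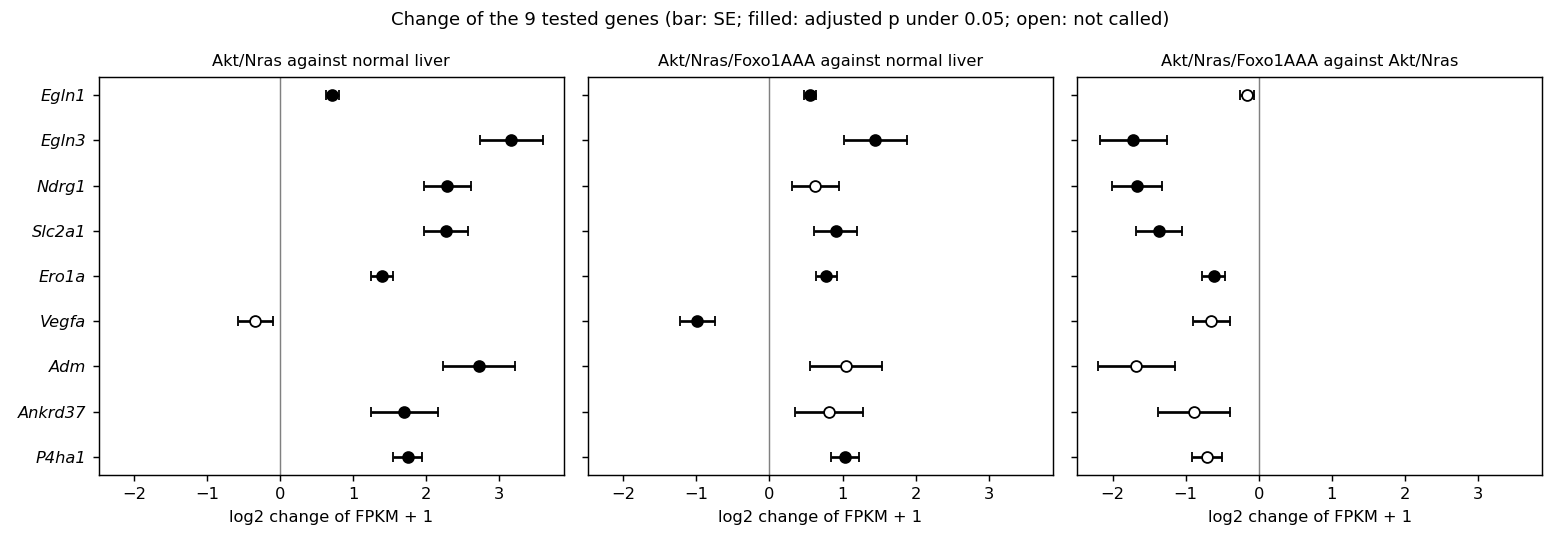
Change of the 9 tested genes on the x axis, as a difference of mean log2(FPKM + 1), with the SE as bars, in each of the 3 comparisons; filled points passed an adjusted p of 0.05 in limma. The changes of Akt/Nras tumours against normal liver reach 3.16, those between the tumour groups all lie below 0, and Vegfa lies below 0 in all 3 comparisons.

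Set against all genes, 8 of the 9 tested genes rose in Akt/Nras tumours against normal liver and 0 fell, where 31.1% of all tested genes rose and 37.9% fell. Their median log2 change was 1.74, against -0.07 over all genes tested. In Akt/Nras/Foxo1AAA tumours against normal liver 5 of the 9 rose (Egln1, Egln3, Slc2a1, Ero1a and P4ha1), and Vegfa fell, where 26.8% of all tested genes rose and 36.5% fell. The median there was 0.81, against -0.09 over all genes. These comparisons share the 4 normal livers and are not independent. Between the tumour groups 4 of the 9 were lower with Foxo1AAA (Egln3, Ndrg1, Slc2a1 and Ero1a) and 0 were higher, where 4.13% of all tested genes were lower and 7.93% higher. The median was -0.89, against -0.01 over all genes, and the log2 change was below 0 for each of the 9. All Akt/Nras/Foxo1AAA tumours were below all Akt/Nras tumours for 5 of the 9 (those 4 and P4ha1), where 15.5% of all tested genes were placed so. At an unadjusted p under 0.05, 7 of the 9 differed between the tumour groups, but the share of all tested genes at that level was not counted. The 7 are therefore not set against all genes. That count of 4 depended on which libraries were fitted. It was 0 without Akt/Nras/Foxo1AAA replicate 1 or 2, 1 without Akt/Nras replicate 3, 2 without Akt/Nras replicate 1, 7 without Akt/Nras/Foxo1AAA replicate 3, and 0 when only the 6 tumours were fitted.

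**Figure D3:**
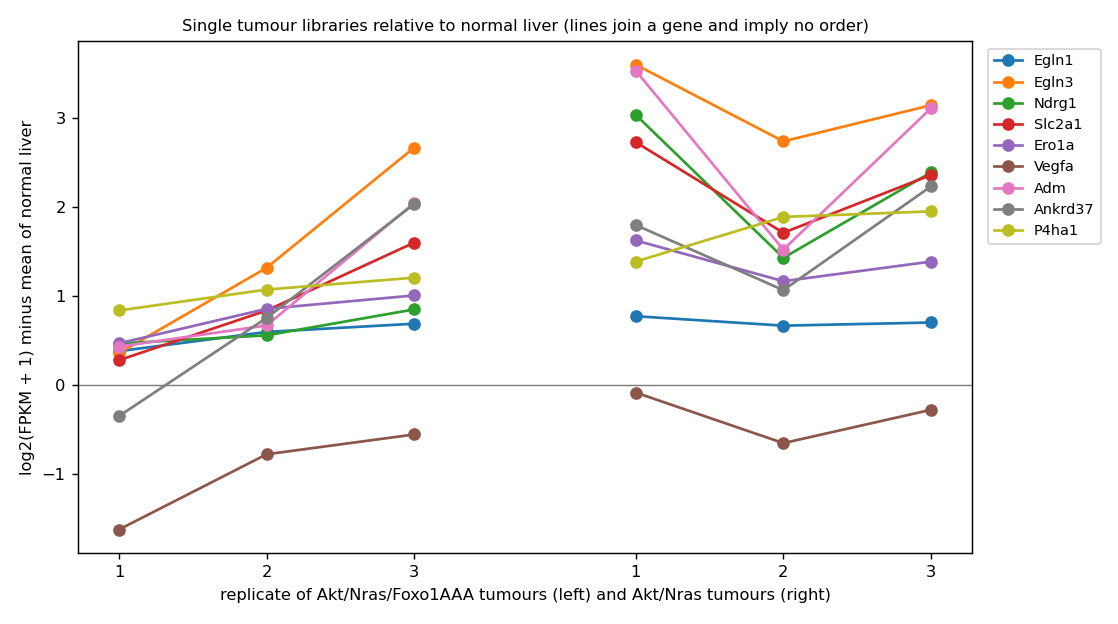
Each tumour library relative to normal liver, as log2(FPKM + 1) minus the mean of the 4 normal livers on the y axis, for the 9 tested genes, with the Akt/Nras/Foxo1AAA tumours left of the Akt/Nras tumours on the x axis; lines join the values of a gene and imply no order. Replicate 1 lies nearest to 0 among the Akt/Nras/Foxo1AAA tumours for every gene but Vegfa, and Akt/Nras replicate 2 lies below the other libraries of its group for every gene but P4ha1.

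The 6 tumours differed among themselves along the same line. Averaged over the 10 genes, log2(FPKM + 1) was 2.29, 2.76 and 3.34 in Akt/Nras/Foxo1AAA replicates 1, 2 and 3, then 4.06, 3.35 and 3.90 in Akt/Nras replicates 1, 2 and 3, and 2.12 to 2.19 in the normal livers. In this average, which sets the low Vegfa of Akt/Nras/Foxo1AAA replicate 1 against its other genes, that tumour was near the normal livers. All of its 10 genes except Vegfa and Ankrd37 were still above every normal liver, with Egln3, Ndrg1 and Slc2a1 only just above. Replicate 3 of that group was level with Akt/Nras replicate 2. In the Akt/Nras/Foxo1AAA group replicate 3 was highest and replicate 1 lowest for 10 of the 10 genes, an order that 22.3% of all tested genes had. In the Akt/Nras group replicate 2 was lowest for 9 of the 10, P4ha1 being the exception, where 36.5% of all tested genes had their lowest value. The highest value exceeded the lowest within the Akt/Nras/Foxo1AAA group 15.0-fold for Ankrd37, 5.68-fold for Egln3 and 5.08-fold for Adm. Egln1, P4ha1 and Ndrg1 varied 1.25-fold, 1.34-fold and 1.41-fold there. The mean of the Akt/Nras/Foxo1AAA tumours lay between those of the other groups for 9 of the 10 genes, as it did for 61.8% of all tested genes.

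Akt1 itself followed the same order inside each tumour group. It was at 670, 771 and 1198 FPKM in Akt/Nras/Foxo1AAA replicates 1, 2 and 3, and at 963, 720 and 958 FPKM in Akt/Nras replicates 1, 2 and 3. Foxo1 was at 83.3, 77.9 and 125 FPKM in the Akt/Nras/Foxo1AAA tumours, so the tumour with most Foxo1 was also the one with the highest hypoxia-induced genes in its group. Summed over 11 hepatocyte markers the level was 41823, 37977 and 29689 FPKM in Akt/Nras/Foxo1AAA replicates 1, 2 and 3 and 24618 to 27090 FPKM in Akt/Nras tumours, against 76813 to 81175 FPKM in normal livers. Of these markers 11 of 11 fell in each tumour group against normal liver, and 8 of 11 were higher with Foxo1AAA than in Akt/Nras tumours (3 without Akt/Nras/Foxo1AAA replicate 1, 5 or more without any other library, and 0 when only the 6 tumours were fitted). The sum over 12 cholangiocyte and progenitor markers was 2850 to 5596 FPKM in Akt/Nras/Foxo1AAA tumours and 4392 to 6022 FPKM in Akt/Nras tumours, against 26.3 to 32.3 FPKM in normal livers. Of the 11 tested, 9 rose in Akt/Nras/Foxo1AAA tumours and 11 in Akt/Nras tumours against normal liver, and 8 were lower with Foxo1AAA (5 without Akt/Nras replicate 1 or 3, and 1 when only the 6 tumours were fitted). Between the tumour groups 7.93% of all 12439 tested genes were higher with Foxo1AAA and 4.13% lower. Of the 12439, 402 were higher without Akt/Nras/Foxo1AAA replicate 1, and 289 and 291 lower without Akt/Nras replicate 1 and 3. With only the 6 tumours fitted, 5 were higher and 5 lower. Neutrophil markers summed to 7.16, 10.6 and 26 FPKM in Akt/Nras/Foxo1AAA replicates 1, 2 and 3 and 12.6 to 26.7 FPKM in Akt/Nras tumours, against 0.748 to 3.96 FPKM in normal livers, where Camp and Ngp were at 0. Over 16 endothelial markers the sums were 90.1 to 101 FPKM in Akt/Nras/Foxo1AAA tumours and 80.9 to 103 FPKM in Akt/Nras tumours, against 69.9 to 83.2 FPKM in normal livers. The sums for 13 macrophage markers were 243 to 262 FPKM in Akt/Nras/Foxo1AAA tumours, 148 to 273 FPKM in Akt/Nras tumours and 129 to 195 FPKM in normal livers. For 12 stellate cell and fibroblast markers they were 108 to 142, 166 to 188 and 41.6 to 50.9 FPKM in the same 3 groups, and for 7 erythroid markers 2046 to 3689, 1009 to 2523 and 1001 to 1786 FPKM. Against normal liver, the genes that rose in Akt/Nras/Foxo1AAA tumours were 2 of 2 tested neutrophil markers, 10 of 15 endothelial, 4 of 11 macrophage, 7 of 12 stellate cell and fibroblast and 3 of 5 erythroid markers. In Akt/Nras tumours they were 2, 8, 4, 8 and 0 of the same lists. Those that fell were 1 endothelial and 3 stellate cell and fibroblast markers in Akt/Nras/Foxo1AAA tumours, and 1 endothelial, 3 macrophage, 3 stellate cell and fibroblast and 1 erythroid marker in Akt/Nras tumours. Among all tested genes 26.8% rose and 36.5% fell in Akt/Nras/Foxo1AAA tumours, and 31.1% rose and 37.9% fell in Akt/Nras tumours. The part of Akt1, Foxo1 or any of these cell types in the results was not tested.

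Levels per kilobase allow the genes to be ranked within a group. In Akt/Nras tumours Egln3 was the most abundant of the 10, at 45.8 ± 13.9 FPKM (SD, n = 3), ahead of Vegfa (33.2 ± 6.61), Slc2a1 (30.9 ± 10.7) and Egln1 (24.8 ± 0.97), whose ranges overlapped in part. In Akt/Nras/Foxo1AAA tumours Egln1 (22.2 ± 2.49 FPKM) and Vegfa (21.6 ± 7.85) led, and Egln3 (16.1 ± 13.5) could not be placed within its spread. In normal livers Vegfa (42.0 ± 6.21 FPKM, n = 4) stood apart from Egln1 (14.7 ± 0.923), and Slc2a1, Egln3 and Ero1a followed at 5.40 ± 0.707, 4.13 ± 0.859 and 3.84 ± 0.401 FPKM. Car9 was the lowest in all 3 groups.

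The HIF subunits and their regulators showed smaller changes, and 16 of the 18 listed were tested. In Akt/Nras tumours against normal liver 4 of the 16 rose and 5 fell, where 31.1% of all tested genes rose and 37.9% fell. The median log2 change of the 16 was -0.08, against -0.07 over all genes. With equal totals 16 rose and 0 fell, and with equal totals without the 50 most abundant genes 14 rose and 0 fell. Of all 12439 tested genes 8609 and 7489 rose under these scalings, and 1713 and 2195 fell. Hif1a, the oxygen-regulated alpha subunit, rose 2.02-fold (log2 change 0.92 ± 0.14, limma adjusted p = 0.000142), and Vhl, Siah1a and Cited2 rose by 0.56, 0.51 and 0.55 on the log2 scale. The Siah1a call was lost without Akt/Nras replicate 1, and the Cited2 call without Akt/Nras replicate 1 or 3 or any 1 of the normal livers. Epas1, the other main alpha subunit, and Arnt, Egln2, Cul2 and Siah2 had changes of -0.36, -0.42, -0.50, -0.44 and -0.32, but these 5 directions were turned round under equal totals and under equal totals without the 50 most abundant genes. In Akt/Nras/Foxo1AAA tumours against normal liver 2 of the 16 rose and 3 fell, where 26.8% of all tested genes rose and 36.5% fell. The median of the 16 was -0.12, against -0.09 over all genes, and the same scalings gave 16 and 0, and 15 and 0. Of all 12439 tested genes 7584 and 6845 rose there, and 1681 and 1916 fell. The 2 that rose without rescaling were Hif1a (1.68-fold, 0.67 ± 0.14, adjusted p = 0.00156) and Vhl (0.38 ± 0.12, adjusted p = 0.0157), and the Vhl call was lost without Akt/Nras/Foxo1AAA replicate 2 or 3. The 3 that fell were Arnt, Egln2 and Cul2 at -0.34, -0.33 and -0.31, also turned round by both scalings, and the Cul2 call was lost without Akt/Nras/Foxo1AAA replicate 2 or 3. Between the tumour groups limma called 0 of the 16, with 0 at an unadjusted p under 0.05. With equal totals 5 were lower with Foxo1AAA, and 1 when the 50 most abundant genes were left out. Of all 12439 tested genes 3234 and 1239 were lower under these scalings, and 656 and 803 higher. Of the 3 HIF prolyl hydroxylases, Egln2, which is known to respond least to oxygen, was at 32.5 ± 2.10 FPKM in Akt/Nras/Foxo1AAA tumours and 28.9 ± 2.93 FPKM in Akt/Nras tumours, against 41.1 ± 2.70 FPKM in normal livers.

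**Figure D4:**
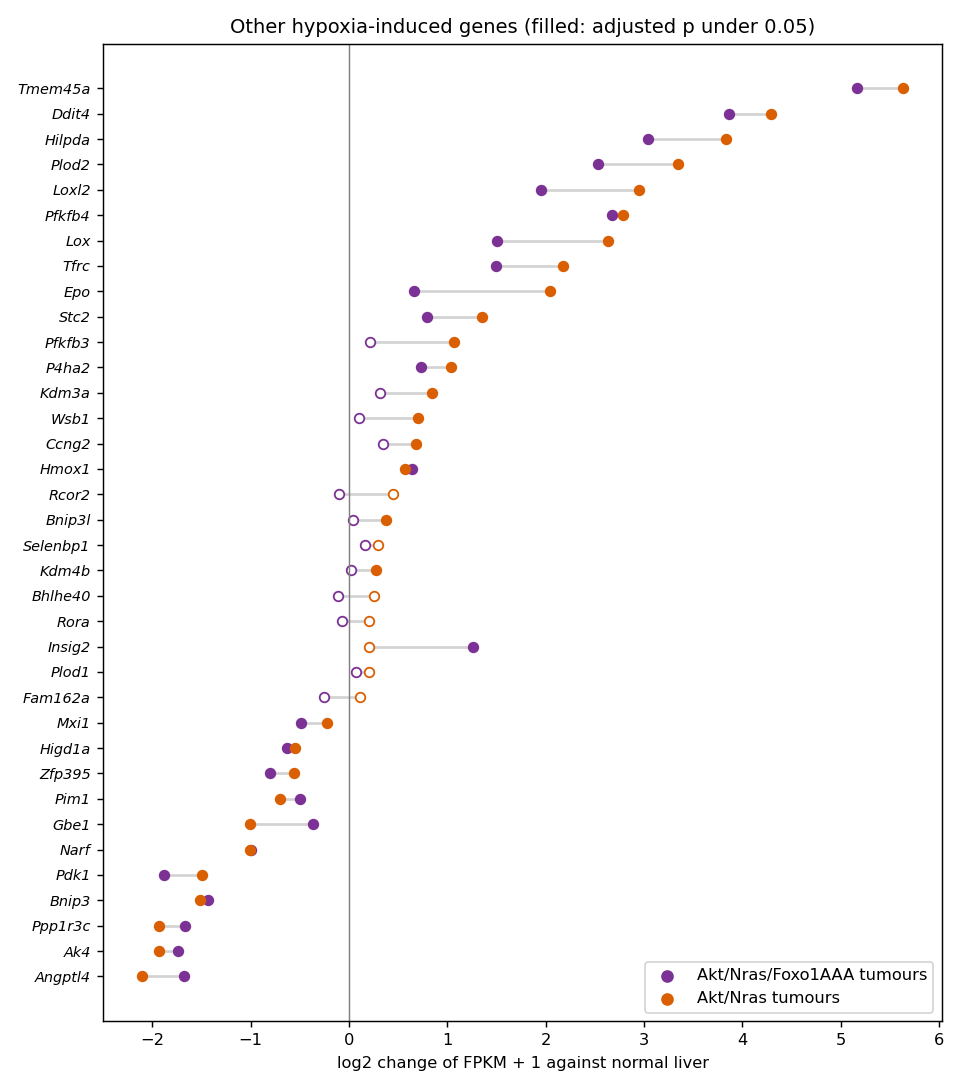
Changes of 36 of the 37 tested genes known to rise in hypoxia outside glycolysis, each on a row of its own, as differences of mean log2(FPKM + 1) against normal liver on the x axis, for Akt/Nras/Foxo1AAA tumours and Akt/Nras tumours in separate colours; both share the 4 normal livers, and filled points passed an adjusted p of 0.05 in limma. The genes drawn run from Tmem45a, highest of them in Akt/Nras tumours at 5.64, to Angptl4, lowest there at -2.11.

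Other transcripts known to rise in hypoxia did not all rise. Among all tested genes, 31.1% rose and 37.9% fell in Akt/Nras tumours against normal liver, and 26.8% rose and 36.5% fell in Akt/Nras/Foxo1AAA tumours. Of 37 tested outside glycolysis, 19 rose and 11 fell in Akt/Nras tumours against normal liver (median 0.38), and 14 rose and 11 fell in Akt/Nras/Foxo1AAA tumours (median 0.10). With equal totals these counts were 28 and 5, and 24 and 6. Of all 12439 tested genes, that scaling gave 8609 that rose and 1713 that fell in Akt/Nras tumours. In Akt/Nras/Foxo1AAA tumours it gave 7584 and 1681. Ddit4, an inhibitor of mTORC1 signalling, was at 67.4 ± 23.0 FPKM in Akt/Nras/Foxo1AAA tumours and 89.3 ± 23.2 FPKM in Akt/Nras tumours, against 3.56 ± 0.905 FPKM in normal livers, and Tmem45a was at 49.7 ± 11.2 and 69.0 ± 12.4 FPKM in the same tumour groups, against 0.390 ± 0.0619 FPKM in normal livers. On the other side, Angptl4, an inhibitor of lipoprotein lipase, fell by 1.68 in Akt/Nras/Foxo1AAA tumours and by 2.11 in Akt/Nras tumours on the log2 scale. Ak4, Ppp1r3c and Pdk1 also fell in both, by 1.74, 1.67 and 1.88 in Akt/Nras/Foxo1AAA tumours and by 1.94, 1.93 and 1.5 in Akt/Nras tumours. So did the mitophagy receptor Bnip3, picked out after its values were seen, by 1.43 in Akt/Nras/Foxo1AAA tumours and 1.52 in Akt/Nras tumours. Of the 37, 2 were higher with Foxo1AAA than in Akt/Nras tumours and 4 lower, where 7.93% of all tested genes were higher and 4.13% lower. The median of the 37 was -0.34. With equal totals 2 were higher and 18 lower, where 656 of all 12439 tested genes were higher and 3234 lower.

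Without rescaling, the 4 lower with Foxo1AAA were Epo, Lox, Loxl2 and Tfrc, and the 2 higher were Insig2 and Gbe1. Epo, the red cell hormone that the adult liver can make under low oxygen, was at 0.322, 0.524 and 0.982 FPKM in the Akt/Nras/Foxo1AAA tumours and 3.91, 2.5 and 3.13 FPKM in the Akt/Nras tumours, and was listed at 0 in all 4 normal livers. It was 5.22-fold lower with Foxo1AAA (log2 change -1.38 ± 0.16, limma adjusted p = 0.0028). Epo reached the 1 FPKM needed for testing only in the Akt/Nras tumours. It was thus tested only because it was high there, so its call and its place among the 4 add no support. Lox, which crosslinks collagen, was at 2.02 ± 0.608 FPKM in Akt/Nras/Foxo1AAA tumours and 5.64 ± 1.73 FPKM in Akt/Nras tumours, and was 2.80-fold lower with Foxo1AAA (-1.13 ± 0.19, adjusted p = 0.0073). These calls were lost when only the 6 tumours were fitted, as were those of the other 4 genes. The calls of Loxl2, a relative of Lox, and Tfrc, the transferrin receptor, were also lost without Akt/Nras/Foxo1AAA replicate 1 or 2, and that of Tfrc without Akt/Nras replicate 1 or 3. The call of Insig2, a regulator of sterol synthesis, was lost without Akt/Nras/Foxo1AAA replicate 2 and that of Gbe1, the glycogen branching enzyme, without replicate 1 of that group.

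Glycolysis genes rose more evenly: 13 of 15 tested rose in Akt/Nras tumours against normal liver (median 1.33) and 10 of 15 in Akt/Nras/Foxo1AAA tumours (median 0.75), with Aldoc the 1 that fell in each. Among all tested genes 31.1% and 26.8% rose in these comparisons. Pfkp, a phosphofructokinase isoform, was at 6.90 ± 1.83 FPKM in Akt/Nras/Foxo1AAA tumours and 9.37 ± 1.94 FPKM in Akt/Nras tumours, against 0.277 ± 0.128 FPKM in normal livers. Pkm, the pyruvate kinase of muscle and dividing cells, was at 25.1 ± 14.1 and 58.3 ± 25.1 FPKM in the same tumour groups, against 7.58 ± 3.42 FPKM in normal livers, and Aldoa at 142 ± 27.4 and 245 ± 50.3 FPKM, against 53.1 ± 11.6 FPKM. The fall of Aldoc was 0.92 in Akt/Nras tumours, no longer called under equal totals, and 1.35 in Akt/Nras/Foxo1AAA tumours. Gapdh is counted among those that rose but is uncertain, since it has many near-identical copies in the genome. It was at 71.6 FPKM in 1 tumour and 3.22 FPKM in another, and its calls were lost without Akt/Nras replicate 1 or 2, or without Akt/Nras/Foxo1AAA replicate 1 or 3. With Foxo1AAA, 4 of the 15 were lower than in Akt/Nras tumours and 0 higher, where 4.13% of all tested genes were lower and 7.93% higher. The median of the 15 was -0.42. The 4 were Slc16a3, Pgk1, Aldoa and Pgam1, the last picked out after its values were seen, and each lost its call without Akt/Nras replicate 1 or 3, without Akt/Nras/Foxo1AAA replicate 1 or 2 and, for the first 3, without normal liver replicate 4.

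The relatives of Slc2a1, Ndrg1 and Ero1a moved apart from them. None of the 5 tested hexose transporters other than Slc2a1 rose: 5 fell in Akt/Nras tumours and 4 in Akt/Nras/Foxo1AAA tumours against normal liver. Among all tested genes 37.9% and 36.5% fell in these comparisons. Slc2a2, the main glucose transporter of hepatocytes, was at 94.6 ± 1.71 FPKM in Akt/Nras/Foxo1AAA tumours and 70.7 ± 0.56 FPKM in Akt/Nras tumours, against 110 ± 13.4 FPKM in normal livers, and its fall in Akt/Nras tumours (log2 change -0.62) turned into a rise of 0.35 under equal totals. Slc2a5, a fructose transporter, fell by 1.92 in Akt/Nras/Foxo1AAA tumours and by 2.51 in Akt/Nras tumours. Ndrg2 was at 174, 149 and 114 FPKM in Akt/Nras/Foxo1AAA tumours and 64.2 ± 12 FPKM in Akt/Nras tumours, against 510 ± 7.45 FPKM in normal livers. It fell against normal liver in both groups and was 2.27-fold higher with Foxo1AAA than in Akt/Nras tumours (1.16 ± 0.16, limma adjusted p = 0.00416), the opposite direction to Ndrg1, a call lost when only the 6 tumours were fitted. Ero1b fell by 0.45 in Akt/Nras/Foxo1AAA tumours and by 0.85 in Akt/Nras tumours, and both directions turned under equal totals.

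Among 7 tested carbonic anhydrases other than Car9, 2 rose and 5 fell in each tumour group against normal liver. For all tested genes the shares were 26.8% and 36.5% in Akt/Nras/Foxo1AAA tumours, and 31.1% and 37.9% in Akt/Nras tumours. The cytosolic enzymes Car2 and Car13 rose, Car2 to 11.3 ± 2.49 FPKM in Akt/Nras/Foxo1AAA tumours and 20.7 ± 4.82 FPKM in Akt/Nras tumours, against 3.11 ± 0.337 FPKM in normal livers. The liver-rich Car3 and the mitochondrial Car5a fell, with log2 changes of -3.58 and -2.10 in Akt/Nras/Foxo1AAA tumours and of -5.44 and -4.10 in Akt/Nras tumours. Car1 and Car8 fell too, by 3.19 and 1.06 in Akt/Nras/Foxo1AAA tumours and by 3.46 and 1.85 in Akt/Nras tumours.

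Of 10 tested genes on a list of collagen prolyl and lysyl hydroxylases, their subunits and related genes, 8 rose in each tumour group against normal liver. Among all tested genes 26.8% rose in Akt/Nras/Foxo1AAA tumours and 31.1% in Akt/Nras tumours. Some of the list, Plod2 and P4ha2 among them, are also counted in the 37 other hypoxia-induced transcripts. Plod2, a lysyl hydroxylase, was at 6.53 ± 4.46 FPKM in Akt/Nras/Foxo1AAA tumours and 10.7 ± 5.08 FPKM in Akt/Nras tumours, against 0.075 ± 0.0466 FPKM in normal livers. P4ha2, the sister subunit of P4ha1, rose 2.18-fold in Akt/Nras/Foxo1AAA tumours and 2.91-fold in Akt/Nras tumours (limma adjusted p = 0.0046 and 0.000416); it was picked out after its values were seen. P4hb, the beta subunit shared by the prolyl 4-hydroxylases and itself a disulfide isomerase, was the 1 that fell in Akt/Nras tumours (log2 change -0.32), a direction that turned under both scalings to equal totals. Of 12 genes of disulfide formation in the endoplasmic reticulum 2 rose and 5 fell in Akt/Nras tumours against normal liver, and 2 rose and 4 fell in Akt/Nras/Foxo1AAA tumours. For all tested genes the shares were 31.1% and 37.9%, and 26.8% and 36.5%. Gpx7, a peroxidase that works beside ERO1A, rose by 1.52 in Akt/Nras/Foxo1AAA tumours and by 1.77 in Akt/Nras tumours, and Pdia5 fell by 1.46 and 1.78 in the same groups. The other gene that rose in both, Gpx8, is a second peroxidase of that compartment; without Akt/Nras/Foxo1AAA replicate 3 the number that rose in Akt/Nras/Foxo1AAA tumours was 1.

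The receptors of both vascular factors were measured as well. Of 9 VEGF ligands and receptors, Vegfa included, 3 rose and 3 fell with Foxo1AAA against normal liver, and 4 rose and 1 fell in Akt/Nras tumours. For all tested genes the shares were 26.8% and 36.5%, and 31.1% and 37.9%. Flt4, the receptor of VEGF-C on lymphatic and some blood vessels, was at 20.7 ± 2.91 FPKM in Akt/Nras/Foxo1AAA tumours and 11 ± 1.92 FPKM in Akt/Nras tumours, against 1.87 ± 0.0294 FPKM in normal livers. It rose against normal liver in both groups and was 1.88-fold higher with Foxo1AAA (0.86 ± 0.13, limma adjusted p = 0.00496), a call lost when only the 6 tumours were fitted. Flt1 and Vegfc rose in both tumour groups, by 0.69 and 0.45 in Akt/Nras/Foxo1AAA tumours and by 1.19 and 0.76 in Akt/Nras tumours. The co-receptor Nrp1 fell by 1.52 in Akt/Nras/Foxo1AAA tumours and by 1.75 in Akt/Nras tumours. The ligand Pgf rose by 1.90 in Akt/Nras tumours, and Vegfb fell by 0.36 in Akt/Nras/Foxo1AAA tumours, a direction that turned under equal totals. Of 6 tested receptors and relatives of adrenomedullin 3 rose in Akt/Nras/Foxo1AAA tumours and 4 in Akt/Nras tumours against normal liver, and 0 fell. Adm2, a related peptide, was at 12.6 ± 4.32 FPKM in Akt/Nras/Foxo1AAA tumours and 15.2 ± 4.44 FPKM in Akt/Nras tumours, against 0.0493 ± 0.0987 FPKM in normal livers. The receptor partner Ramp3 rose by 1.64 in Akt/Nras/Foxo1AAA tumours and by 2.08 in Akt/Nras tumours. The receptor Calcrl, picked out after its values were seen, was at 1.76 ± 0.0586 FPKM in Akt/Nras/Foxo1AAA tumours, 1.91 ± 0.326 FPKM in Akt/Nras tumours and 1.90 ± 0.170 FPKM in normal livers, and was not called.

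For each of the 9 tested genes, the gene with the most similar pattern was found by the root mean square difference of log2(FPKM + 1) over the 10 libraries, after centring each gene on its own mean. The closest match was Stam2 for Egln1, at 0.05 on the log2 scale, then Fosl2 for Ero1a at 0.10 and Itgav for P4ha1 at 0.20. Slc2a1 was nearest to Epo (0.25) and Ndrg1 to the lactate transporter gene Slc16a3 (0.26), both of them genes already listed among the hypoxia-induced transcripts. The nearest gene was Cd44 for Egln3 (0.32), Anxa3 for Adm (0.40), Sh2d5 for Ankrd37 (0.28) and Lonrf1 for Vegfa (0.21). The 10 libraries fall into 3 groups, so likeness here includes shared differences between the group means.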

How the data were processed

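RNA sequencing covered 10 mouse samples in 3 groups taken from their titles, with 3 Akt/Nras/Foxo1AAA tumours, 3 Akt/Nras tumours and 4 normal livers. The measurements are FPKM, deposited as a single table in which every library has its own column, per the file headers. The submitters' processing notes name FastQC 0.11.7 and the build GRCm38 with no role. No source used here gives the aligner, the counter, strand use or the table's build, so no coordinate of the table was printed. Multiplied by gene length, 100% of the non-zero FPKM came out as whole reads to within 0.02. The authors' divisor was 0.629 to 1.06 of a library's summed reads and differed by group. FPKM therefore summed to 349619 to 743203, and the deposited values were not rescaled further. Genes with at least 1 FPKM in at least 3 libraries were tested with limma 3.58.1 in R 4.3.3 on log2(FPKM + 1), with 1 mean per group over all 10 libraries, eBayes with a variance trend, two-sided tests and Benjamini-Hochberg adjustment over all 12439 genes tested. Alternatives were other scalings, pseudocounts, filters, a fit of the 2 groups compared, a replicate block, limma-trend on the recovered reads, array weights and leaving out each library. Car9 ratios are exact conditional binomial comparisons of summed reads at 95% confidence, scaled by the authors' divisor and not by the summed reads of the libraries. The 10 genes, the lists and the rule for named genes were chosen with earlier results of these data known. The rule took all 10 genes, all tested HIF subunits and regulators, the injected genes, up to 3 called genes each way per list and comparison, and the gene of most similar pattern. The values of 1 gene that the lists count are not reported here. The scripts were checked on simulated data.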

Additional observations from a re-analysis of the deposited data

Results flagged for a closer look

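The 4 genes called between the tumour groups are repeated here because that difference is also the difference between the 2 tumour groups' changes against normal liver. The log2 change of Akt/Nras/Foxo1AAA tumours against Akt/Nras tumours was -1.71 for Egln3, -1.66 for Ndrg1, -1.36 for Slc2a1 and -0.62 for Ero1a (limma adjusted p = 0.0387, 0.0149, 0.0228 and 0.0294). In each of them all 3 Akt/Nras/Foxo1AAA tumours were below all 3 Akt/Nras tumours, as in 15.5% of all tested genes, but the 4 are given here because they were called lower, so this separation adds no support.

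Among the normal livers, Car9 had 1 library apart from the others: replicate 3 was at 0.0454 FPKM, from 1 read, and the other 3 were at 0, so the gap was 1.0 of the range. The check ran on the 4 normal livers for 10 genes, and chance gives about 1 such case in 20.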

How the results depend on the processing

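Over 20 alternatives, the 27 tests of the 9 genes kept their side of the threshold, with no called change of direction, in 471 of 540 cases. They lost a call in 34, gained one in 34 and changed direction with a call in 1. An uncalled change of direction counts as kept. Vegfa in Akt/Nras tumours against normal liver went from -0.34 to 0.35 in this way, under equal totals without the 50 most abundant genes. The genes called in Akt/Nras tumours against normal liver fell in number to 5372, against 8587, when 5 FPKM was required, and those in Akt/Nras/Foxo1AAA tumours against normal liver to 5027, against 7874, because fewer genes were tested. Between the tumour groups the 1500 genes called became 3890 with equal totals (656 higher and 3234 lower), 923 with no filter, 10 with only the 6 tumours, 468 with the replicate block, 3668 with array weights and 550 to 1953 on leaving out 1 library, lowest without Akt/Nras/Foxo1AAA replicate 1. The 4 of 9 genes called there became 8 with equal totals, 1 with no filter, 0 with only the 6 tumours (6 at an unadjusted p under 0.05), 2 with the replicate block, 7 with array weights and 0 to 7 on leaving out 1 library (6 or 7 at an unadjusted p under 0.05 where 0 were called). The cause was not tested. At an unadjusted p under 0.05 the share of all tested genes was not counted in any fit. Same-numbered samples correlated between -0.17 and 0.11 in their deviations from the group means and no label pairs them, so the block carries no pairing.

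Scaling decided the split of calls. Equal totals moved the median of all genes to 0.70 in Akt/Nras tumours, 0.47 in Akt/Nras/Foxo1AAA tumours and -0.21 between them, and equal totals without the 50 most abundant genes to 0.49, 0.37 and -0.10. Higher and lower calls became 8609 and 1713 with equal totals (7489 and 2195 without the 50 genes) in Akt/Nras tumours, against 3871 and 4716, 7584 and 1681 (6845 and 1916) in Akt/Nras/Foxo1AAA tumours, against 3330 and 4544, and 803 and 1239 between the groups without the 50 genes, against 986 and 514. Turned directions are listed here only where the deposited or the rescaled values gave a call. Vegfa in Akt/Nras tumours also turned without the 50 genes, to 0.35, but was called in neither fit. Directions that turned in Akt/Nras tumours against normal liver under equal totals (and without the 50 genes, in brackets where listed) were Vegfa 0.61, Epas1 0.59 (0.33), Arnt 0.40 (0.18), Egln2 0.45 (0.19), Cul2 0.43 (0.19), Siah2 0.57 (0.33), Vegfb 0.75 (0.50), P4hb 0.66 (0.39), Ero1b 0.0066, Slc2a2 0.35 (0.085), Ndrg3 0.40 and Foxo1 0.58 (0.35). In Akt/Nras/Foxo1AAA tumours they were Epas1 0.56 (0.44), Arnt 0.27 (0.17), Egln2 0.37 (0.25), Cul2 0.34 (0.23), Siah2 0.45 (0.34), Gbe1 0.34 (0.22), Pgk1 0.70 (0.58), Vegfb 0.32 (0.20), Calcrl 0.39 (0.32), P4hb 0.59 (0.47), Ero1b 0.20 (0.094) and Slc2a2 0.51 (0.39). Relative to those medians the 8 genes other than Vegfa stayed above 0 against normal liver. Depth limits Car9, with at most 25 reads in a library, and Adm and Ankrd37 in normal liver, with 2 to 18 reads.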
